A study of Mus musculus with 16 samples.

Results

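Liver transcriptomes of male Ercc1 d/- mice fed diets high in carbohydrate were compared with those of other mice of this genotype fed a diet low in carbohydrate. The comparison rests on 12 of the 16 libraries of the series. The high-carbohydrate libraries were 4 from the low-protein diet (protein at 70% and carbohydrate at about 112% of the standard diet) and 4 from the low-fat diet (fat at 70%, carbohydrate at about 112%), pooled into 1 group of 8 by their titles. The 4 low-carbohydrate libraries came from the diet with carbohydrate at 70% and protein at about 194%. The 4 libraries on the standard AIN93G diet did not enter the fit. Every animal was an F1 hybrid of C57BL6J and FVBN, carried the Ercc1 d/- genotype, received the standard pellets until 8 weeks of age and was sampled at 11 weeks. Diets were eaten freely and were balanced for calories. No wild-type animals are among these libraries, so all values describe liver with the repair defect.

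Carbohydrate and protein changed in opposite directions between the low-carbohydrate diet and the low-protein diet, and the protein content of the low-fat diet is not stated in the labels. A difference of carbohydrate and a difference of protein therefore cannot be told apart here. The series title names protein intake and gene-length-dependent decline of transcription, and pooling the diets by carbohydrate asks the reverse question of which genes follow carbohydrate content across diets that reached it by replacing protein or by replacing fat.

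The liver turns surplus sugar into pyruvate, then into fatty acids, through glycolytic and lipogenic enzymes whose genes are switched on by the carbohydrate-sensing factor ChREBP and by the insulin-responsive factor SREBP1c. Surplus amino acids are stripped of nitrogen, which leaves as urea, and their carbon skeletons feed gluconeogenesis. Genes of the amino acid and gluconeogenic arms are induced in liver by glucagon, acting through cAMP, and by glucocorticoids. ERCC1 is a subunit of the endonuclease that cuts damaged DNA in nucleotide excision repair, and its deficiency gives mice a premature ageing syndrome.

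Library totals ran from 36662347 to 112789127 counts, with the deepest library being low-fat 2. Summed hepatocyte markers, among them Alb, Ttr and Hnf4a, ran from 93000 to 116900 CPM with high carbohydrate and from 96740 to 122000 CPM with low carbohydrate, and none of the 9 in the table was at 0 in any library (CPM is the count scaled to library size, with TMM factors). Low-carbohydrate libraries 1 and 4 stood apart. The first principal component held 33.1% of the variance, and low-carbohydrate 1 lay there at 103.7 and the other 11 libraries between -54.9 and 26.7. A second component held 15.4%, with low-carbohydrate 4 at -70.9 and the others between -25.0 and 28.4. Transcripts of 20 kidney genes summed to 776 to 3219 CPM with high carbohydrate, against 99.6, 1718, 544 and 1130 CPM in low-carbohydrate libraries 1 to 4. On the log2 scale the kidney sum was 1.39 higher with high carbohydrate (exact two-sided permutation p = 0.0707 over 495 assignments, the smallest possible being 0.00202), and it was 0.55 higher without low-carbohydrate 1 (exact permutation p = 0.321) and 1.91 higher without low-carbohydrate 2 (exact permutation p = 0.0182). All 20 kidney genes had a fold change above 0 and none passed the test. Of the kidney genes, 12 were at 0 in a low-carbohydrate library, Umod, Kap and Slc12a1 among them, and none was at 0 with high carbohydrate.

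Of 17423 genes tested, 176 (1.01%) differed between the diets at an adjusted p under 0.05, with 53 (0.304%) higher and 123 (0.706%) lower with high carbohydrate. These shares are the background for the counts of called list members below. The fold change is high over low carbohydrate throughout, and its median over all genes tested was 0.03 on the log2 scale. It was above 0 for 9462 genes and below 0 for 7961. Libraries of the 2 groups did not overlap for 380 genes (2.18%), of which 38 were called higher and 74 called lower. Among the genes higher with high carbohydrate were the glycolytic enzyme gene Pklr and enzymes of fatty acid synthesis. Among the lower ones were enzymes of the urea cycle and of amino acid breakdown, amino acid transporters and Pck1. Single libraries decided the count. With edgeR, 0 genes were called without low-carbohydrate 4 (2124 at an unadjusted p under 0.05, against 3188 with all 12 libraries) and 11 without low-carbohydrate 1. With the kidney sum as a covariate 1 gene was called, and with the 4 control libraries added to the fit 0 were (1578 at an unadjusted p under 0.05). DESeq2 called 868 genes, of which 45.5% were higher, against 30.1% by edgeR. All 176 genes kept their direction without low-carbohydrate 4, without low-carbohydrate 1 and without both. Without both, 167 of them still had an unadjusted p under 0.05, as did 1293 of all 18159 genes tested. The 176 were picked for small p-values in these same libraries, so these counts are no independent check. Log2 fold changes below are therefore followed by the value without low-carbohydrate 1, 4 or both wherever it moved by over 1.5 times.

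**Figure D1:**
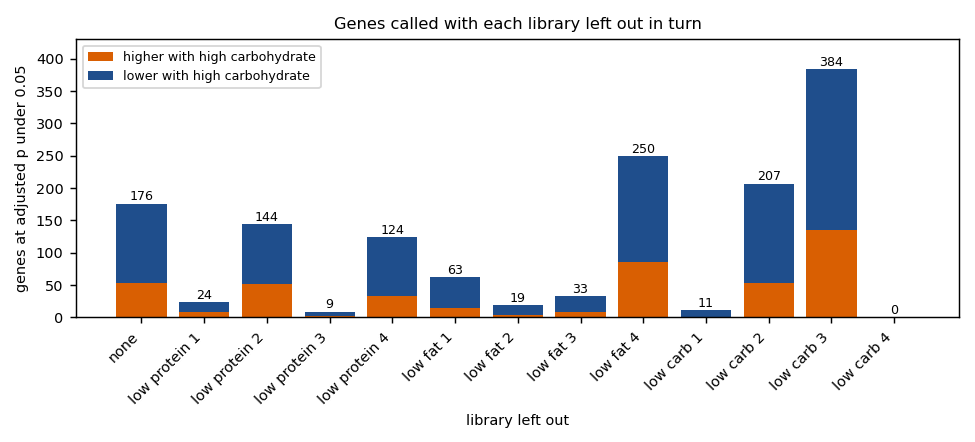
Number of genes at an adjusted p under 0.05 (vertical axis) with all 12 libraries and with each library left out in turn (horizontal axis), higher with high carbohydrate in orange and lower in blue. The count is 176 with all libraries, 0 without low-carbohydrate 4 and 384 without low-carbohydrate 3.

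Genes of sugar use were among those that rose with high carbohydrate. Of 29 genes of sugar sensing and glycolysis, 3 were called higher and none lower (over all genes tested, 0.304% and 0.706%), with a list median of 0.13. Fold changes were above 0 for 18 of them and below 0 for 11. Pklr (chr3:89136142-89146784, GRCm38), the liver pyruvate kinase and a classical ChREBP target, was at 158 to 287 CPM (median 204) with high carbohydrate, against 104, 144, 88.2 and 78.0 CPM in low-carbohydrate libraries 1 to 4. Every high-carbohydrate library lay above every low-carbohydrate one (log2 fold change 1.02, SE 0.18, edgeR adjusted p = 0.0297). Pgd, which produces NADPH in the pentose phosphate pathway, was at 48.5 to 74.5 CPM (median 60.2) with high carbohydrate, against 38.4, 37.7, 38.8 and 36.4 CPM in low-carbohydrate libraries 1 to 4, and its groups did not overlap either (log2 fold change 0.63, SE 0.11, edgeR adjusted p = 0.0273). Tkfc phosphorylates glyceraldehyde from fructose and was at 314 to 499 CPM (median 412) with high carbohydrate, against 248, 274, 324 and 259 CPM in low-carbohydrate libraries 1 to 4. Its groups overlapped, and its adjusted p lay just inside the threshold (log2 fold change 0.55, SE 0.12, edgeR adjusted p = 0.0494). Gpd2, the mitochondrial glycerol phosphate dehydrogenase that carries cytosolic reducing power to the respiratory chain, was also called higher, at 55.5 ± 6.51 CPM with high carbohydrate (SD, n = 8) and 36.1 ± 2.72 CPM with low carbohydrate (SD, n = 4), with no overlap (log2 fold change 0.62, SE 0.10, edgeR adjusted p = 0.0239).

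The sugar sensors themselves did not pass. Mlxipl, which encodes ChREBP, was at 323 ± 65.5 CPM with high carbohydrate (SD, n = 8) and 198 ± 82.9 CPM with low carbohydrate (SD, n = 4), with a log2 fold change of 0.71 (edgeR adjusted p = 0.138), or 0.35 without low-carbohydrate 1 and 4 together. Khk, which phosphorylates fructose, had a log2 fold change of 0.49 (edgeR adjusted p = 0.109). Txnip, another ChREBP target and an inhibitor of glucose uptake, was at 54.4 to 310.2 CPM (median 167) with high carbohydrate, against 34.2, 103, 333 and 692 CPM in low-carbohydrate libraries 1 to 4. The groups overlapped widely, and the log2 fold change of -0.72 turned to 0.15 without low-carbohydrate 4, and was -1.10 without low-carbohydrate 1 and -0.33 without both.

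Lipogenesis held the highest median of the metabolic lists, 0.67, with 18 of 22 genes above 0, 4 called higher and none called lower. Me1, the malic enzyme that supplies NADPH for fatty acid synthesis, was at 148 to 281 CPM (median 196) with high carbohydrate, against 81.1, 126, 79.2 and 98.9 CPM in low-carbohydrate libraries 1 to 4. The groups did not overlap (log2 fold change 1.07, SE 0.18, edgeR adjusted p = 0.0273). Elovl5, an elongase of polyunsaturated fatty acids, reached 216 to 540.2 CPM (median 331) with high carbohydrate, against 153, 158, 188 and 149 CPM in low-carbohydrate libraries 1 to 4. The low-carbohydrate libraries lay close together and all below the high-carbohydrate range (log2 fold change 1.17, SE 0.22, edgeR adjusted p = 0.0333). Acaca, the acetyl-CoA carboxylase that commits carbon to fatty acids, was at 80.3 to 149 CPM (median 128) with high carbohydrate, against 86.3, 71.9, 58.4 and 53.2 CPM in low-carbohydrate libraries 1 to 4, where only low-protein 2 fell below low-carbohydrate 1 (log2 fold change 0.88, SE 0.17, edgeR adjusted p = 0.0350). Agpat2, an acyltransferase of glycerolipid synthesis, was at 133 ± 14.1 CPM with high carbohydrate (SD, n = 8) and 88.6 ± 10.3 CPM with low carbohydrate (SD, n = 4), without overlap (log2 fold change 0.59, SE 0.10, edgeR adjusted p = 0.0273).

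Fasn, the fatty acid synthase, missed the threshold although its groups did not overlap, at 297 to 875 CPM (median 589) with high carbohydrate, against 286, 287, 211 and 125 CPM in low-carbohydrate libraries 1 to 4 (log2 fold change 1.39, SE 0.32, edgeR adjusted p = 0.0579). Pnpla3, a lipid droplet acyltransferase and hydrolase, had few reads (from 5 counts in a library) and a log2 fold change of 2.25 (SE 0.52, edgeR adjusted p = 0.0567). Acacb, the carboxylase isoform that controls entry of fatty acids into mitochondria, ranged from 18.1 to 102 CPM with high carbohydrate and from 19.7 to 22.5 CPM with low carbohydrate, so the spread lay within the high-carbohydrate animals. Scd1, the stearoyl-CoA desaturase, had a log2 fold change of 1.33 and Acly, the ATP citrate lyase, 0.65, with edgeR adjusted p-values of 0.177 and 0.178. Srebf1, which encodes SREBP1, and Thrsp, a lipogenic regulator, had 0.69 and 0.56, with edgeR adjusted p-values of 0.385 and 0.631, and Srebf1 had 1.06 without low-carbohydrate 1.

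**Figure D2:**
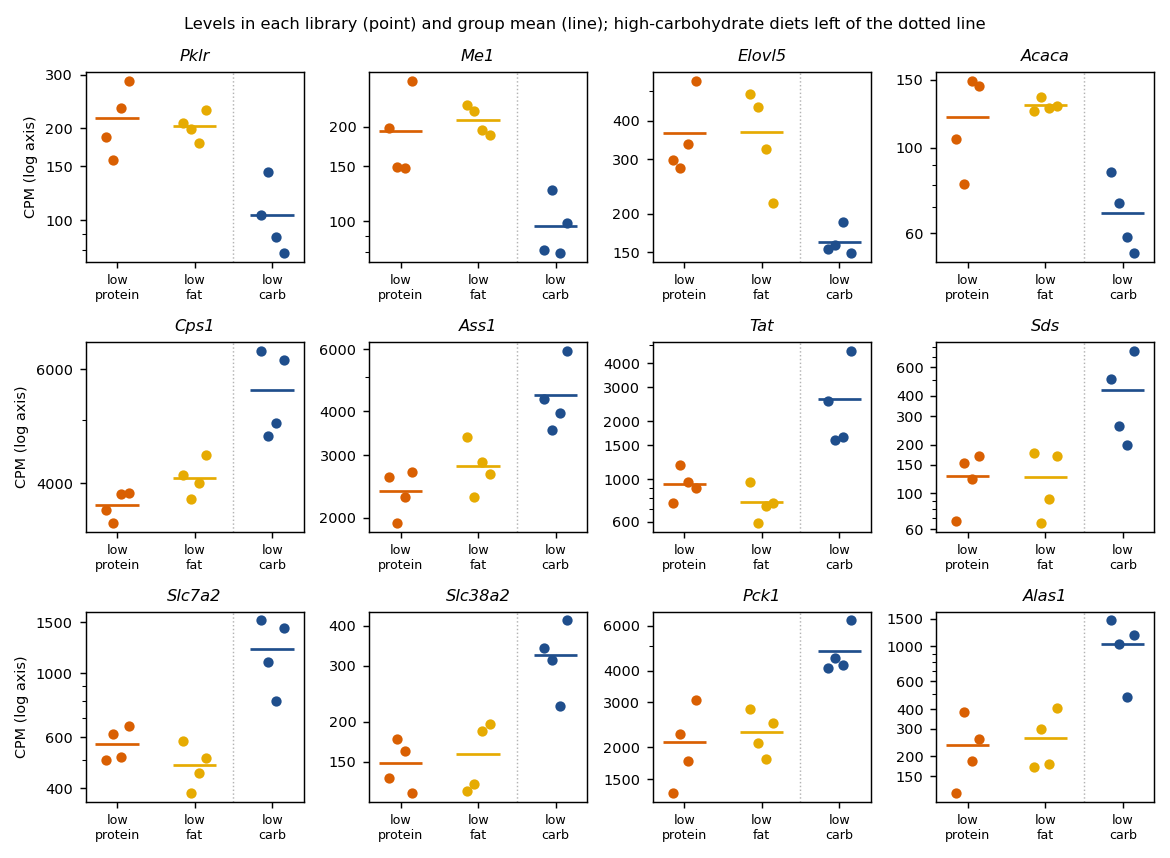
CPM of 12 genes (log axes) in each of the 12 libraries, with the low-protein and low-fat high-carbohydrate diets left of the dotted line and the low-carbohydrate diet right of it; points are libraries and lines are group means. Pklr and the lipogenic genes in the upper row lie higher with high carbohydrate. Genes of nitrogen handling, transport, gluconeogenesis and haem synthesis in the lower rows lie lower, and Acaca is the only gene whose groups overlap.

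The urea cycle list had the lowest median of the programs, -0.54, with 9 of 10 genes below 0, 5 called lower and none higher. With other settings or libraries left out the median ran from -0.63 to -0.33. Cps1, which fixes ammonia at the entry of the cycle, was at 3469 to 4418 CPM (median 3850.0) with high carbohydrate, against 6410.0, 4733, 4950.0 and 6198 CPM in low-carbohydrate libraries 1 to 4. The groups did not overlap, and low-carbohydrate 1 and 4 were the highest libraries (log2 fold change -0.52, SE 0.10, edgeR adjusted p = 0.0356). Ass1, which joins citrulline and aspartate, was at 1930.0 to 3382 CPM (median 2630.0) with high carbohydrate, against 4342, 3530.0, 3951 and 5945 CPM in low-carbohydrate libraries 1 to 4, again without overlap (log2 fold change -0.78, SE 0.15, edgeR adjusted p = 0.0356). Arg1, the arginase that releases urea, was at 977 ± 155 CPM with high carbohydrate (SD, n = 8) and 1571 ± 364 CPM with low carbohydrate (SD, n = 4) (log2 fold change -0.68, SE 0.15, edgeR adjusted p = 0.0471). Gls2, the liver glutaminase that supplies ammonia to Cps1, was at 348 ± 43.7 CPM with high carbohydrate (SD, n = 8) and 594 ± 155 CPM with low carbohydrate (SD, n = 4) (log2 fold change -0.77, SE 0.14, edgeR adjusted p = 0.0333). For Arg1 and Gls2 the groups overlapped. Slc25a13, the aspartate and glutamate carrier of the mitochondrial membrane, changed least of the 5 called members but with little spread, at 168 ± 10.7 CPM with high carbohydrate (SD, n = 8) and 215 ± 14.9 CPM with low carbohydrate (SD, n = 4) (log2 fold change -0.36, SE 0.07, edgeR adjusted p = 0.0391). Asl, which cleaves argininosuccinate, had -0.97 (SE 0.23, edgeR adjusted p = 0.0632), and Otc, which makes citrulline, had -0.15 (edgeR adjusted p = 0.480). Without low-carbohydrate 1 and 4 together the log2 fold changes were -0.33 for Cps1, -0.39 for Arg1, -0.43 for Gls2, -0.40 for Asl and -0.25 for Otc.

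Amino acid catabolism gave 11 of 61 genes called lower and none called higher, with a median of -0.17. Tat (chr8:109990437-109999803), the tyrosine aminotransferase, was at 592 to 1183 CPM (median 828) with high carbohydrate, against 2548, 1606, 1650.0 and 4659 CPM in low-carbohydrate libraries 1 to 4. Each low-carbohydrate library lay above all 8 others, and low-carbohydrate 4 was the highest (log2 fold change -1.61, SE 0.25, edgeR adjusted p = 0.0239). Sds, the serine dehydratase that turns serine into pyruvate, was at 65.4 to 178 CPM (median 138) with high carbohydrate, against 510.0, 262, 198 and 764 CPM in low-carbohydrate libraries 1 to 4, without overlap (log2 fold change -1.77, SE 0.34, edgeR adjusted p = 0.0356). Got1, the cytosolic aspartate aminotransferase, was at 173 to 414 CPM (median 252) with high carbohydrate, against 756, 452, 388 and 1725 CPM in low-carbohydrate libraries 1 to 4 (log2 fold change -1.67, SE 0.33, edgeR adjusted p = 0.0391), and its log2 fold change was -1.05 without low-carbohydrate 4. Gpt, the alanine aminotransferase, was at 381 ± 32.2 CPM with high carbohydrate (SD, n = 8) and 578 ± 123 CPM with low carbohydrate (SD, n = 4) (log2 fold change -0.60, SE 0.11, edgeR adjusted p = 0.0356), while its mitochondrial relative Gpt2 just missed the threshold (-0.65, edgeR adjusted p = 0.0506).

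Oat, which sends ornithine towards glutamate and marks pericentral hepatocytes, was at 464 to 679 CPM (median 566) with high carbohydrate, against 989.5, 769, 1186 and 1436 CPM in low-carbohydrate libraries 1 to 4, without overlap (log2 fold change -0.94, SE 0.15, edgeR adjusted p = 0.0266). A further 5 called members act on methionine, glycine and lysine and their products. Ahcy, which hydrolyses S-adenosylhomocysteine, had a log2 fold change of -0.83, Gnmt, the glycine methyltransferase, -0.59, Cth, which makes cysteine from cystathionine, -0.72, and Sardh, the sarcosine dehydrogenase, -0.42. Aass, the first enzyme of lysine breakdown, had -0.69. The edgeR adjusted p-values of these 5 genes ran from 0.0356 for Ahcy to 0.0471 for Gnmt. Of the 5, only Cth had overlap between groups. Without low-carbohydrate 1 and 4 together, log2 fold changes were -0.94 for Tat, -0.87 for Sds, -0.70 for Got1, -0.32 for Gpt, -0.40 for Gpt2, -0.47 for Ahcy, -0.40 for Cth and -0.38 for Aass.

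**Figure D3:**
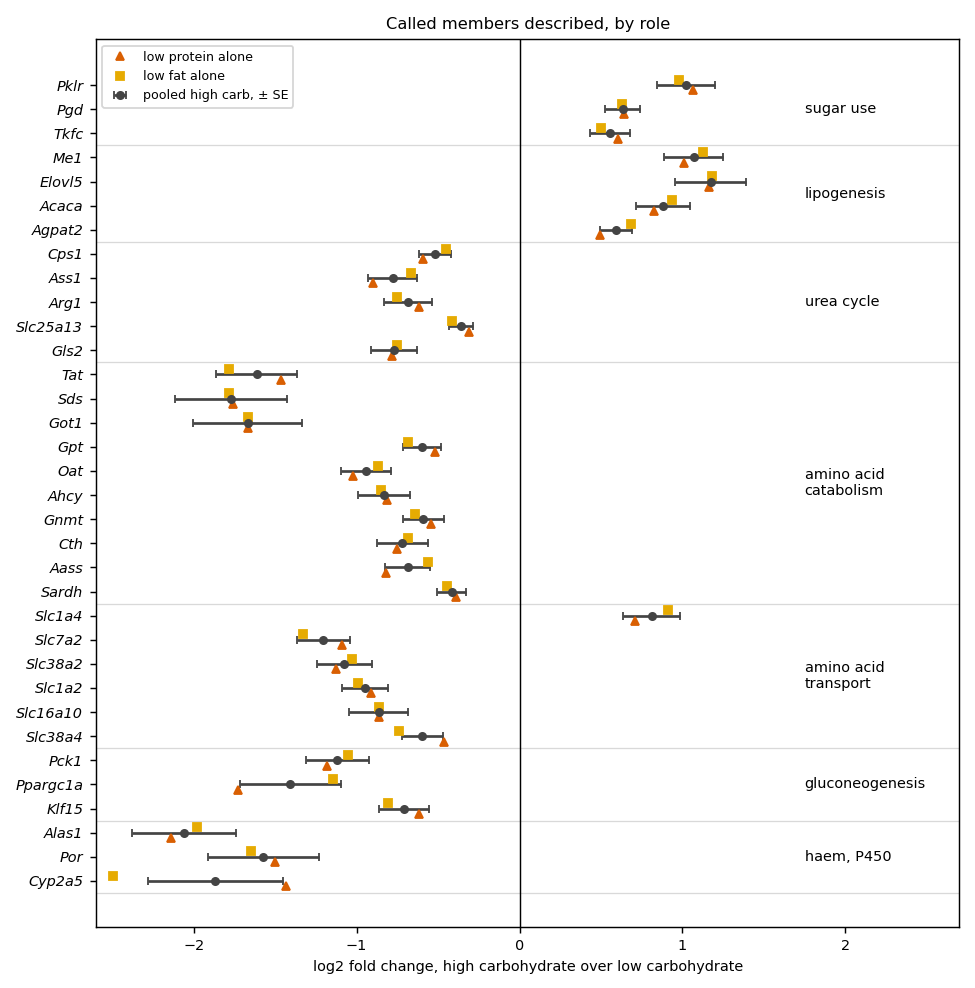
Log2 fold change over low carbohydrate (horizontal axis) of the called members described here of 7 gene lists, grouped by role. Black points are the pooled high-carbohydrate diets with their SE, orange triangles the low-protein diet alone and yellow squares the low-fat diet alone. Genes of sugar use and lipogenesis and Slc1a4 lie right of 0 and all others left of it, for each diet.

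Amino acid transporters were called in both directions, 5 lower and 1 higher of 24, with a median of -0.11, or -0.08 without low-carbohydrate 1 and -0.18 with the kidney covariate. Slc7a2 (chr8:40862396-40922308), the carrier of arginine, lysine and ornithine, was at 385 to 655 CPM (median 511) with high carbohydrate, against 1523, 1091, 800.2 and 1438 CPM in low-carbohydrate libraries 1 to 4. No library of one group reached the other (log2 fold change -1.21, SE 0.16, edgeR adjusted p = 0.0103). Slc38a2, a sodium-coupled carrier of small neutral amino acids, was at 119.8 to 197 CPM (median 148) with high carbohydrate, against 341, 312, 224 and 416 CPM in low-carbohydrate libraries 1 to 4, likewise separate (log2 fold change -1.08, SE 0.17, edgeR adjusted p = 0.0239). Slc1a2, a glutamate carrier of pericentral hepatocytes, was at 66.3 to 94.4 CPM (median 78.9) with high carbohydrate, against 138, 117, 145 and 209 CPM in low-carbohydrate libraries 1 to 4 (log2 fold change -0.95, SE 0.14, edgeR adjusted p = 0.0203). Slc16a10, a carrier of aromatic amino acids, had a log2 fold change of -0.86 (edgeR adjusted p = 0.0458), or -0.29 without low-carbohydrate 1 and 4 together. Slc38a4, another neutral and cationic amino acid carrier, had -0.60 (edgeR adjusted p = 0.0462). The member that rose was Slc1a4, a carrier of alanine, serine and cysteine, at 13.3 ± 2.89 CPM with high carbohydrate (SD, n = 8) and 7.58 ± 1.05 CPM with low carbohydrate (SD, n = 4) (log2 fold change 0.81, SE 0.17, edgeR adjusted p = 0.0471). For Slc38a4 and Slc1a4 the groups overlapped.

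Gluconeogenesis had 3 of 14 genes called lower, none higher and a median of -0.18, which was -0.10 without low-carbohydrate 4 and -0.30 without low-carbohydrate 1. Pck1 (chr2:173153048-173159273), the phosphoenolpyruvate carboxykinase of the cytosol, was at 1321 to 3076 CPM (median 2172) with high carbohydrate, against 4106, 4496, 4227 and 6301 CPM in low-carbohydrate libraries 1 to 4. All 8 high-carbohydrate libraries lay below the lowest low-carbohydrate one (log2 fold change -1.12, SE 0.19, edgeR adjusted p = 0.0286). Ppargc1a, the coactivator of the fasting program, was at 9.17 to 33.7 CPM (median 13.6) with high carbohydrate, against 60.01, 31.0, 24.5 and 56.6 CPM in low-carbohydrate libraries 1 to 4. Only low-fat 4 reached into the low-carbohydrate range (log2 fold change -1.41, SE 0.31, edgeR adjusted p = 0.0482), and the value was -0.79 without low-carbohydrate 1 and 4 together. Klf15, a factor that drives amino acid breakdown for gluconeogenesis, was at 178 ± 35.4 CPM with high carbohydrate (SD, n = 8) and 292 ± 49.9 CPM with low carbohydrate (SD, n = 4) (log2 fold change -0.71, SE 0.15, edgeR adjusted p = 0.0467). Its groups overlapped. G6pc, which releases free glucose, did not follow: it was at 289.9 to 695 CPM (median 342) with high carbohydrate, against 85.7, 288, 608 and 980.2 CPM in low-carbohydrate libraries 1 to 4, and its log2 fold change, -0.22, turned to 0.35 when low-carbohydrate 4 was left out, and was -0.57 without low-carbohydrate 1 and -0.10 without both.

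Promoter sequences (250 bases before to 50 after the start, RefSeq, GRCm38.p6) are shown for 1 gene that rose and 3 that fell, because cAMP acts through the cAMP response element and ChREBP binds pairs of E-boxes. They were chosen after their motif matches had been seen, by no rule, and are examples. Capitals mark TGACG, the core of the response element (whole element TGACGTCA, which contains it), or the E-box CACGTG, on either strand. The windows are chr9:77917115-77917414, plus strand for Elovl5, chr2:173152823-173153122, plus strand for Pck1, chr5:51567676-51567975, minus strand for Ppargc1a and chr9:106247905-106248204, minus strand for Alas1.
Elovl5: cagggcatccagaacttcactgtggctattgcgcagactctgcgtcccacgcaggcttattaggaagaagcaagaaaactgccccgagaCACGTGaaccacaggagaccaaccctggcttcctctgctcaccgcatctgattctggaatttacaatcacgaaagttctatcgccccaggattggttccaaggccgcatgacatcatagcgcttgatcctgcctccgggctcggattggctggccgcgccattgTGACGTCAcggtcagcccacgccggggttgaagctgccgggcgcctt
Pck1: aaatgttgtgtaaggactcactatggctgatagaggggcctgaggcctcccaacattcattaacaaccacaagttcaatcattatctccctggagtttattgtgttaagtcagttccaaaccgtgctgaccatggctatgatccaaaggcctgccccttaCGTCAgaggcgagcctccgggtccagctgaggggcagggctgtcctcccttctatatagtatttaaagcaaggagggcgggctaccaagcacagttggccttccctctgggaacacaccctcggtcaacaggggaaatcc
Ppargc1a: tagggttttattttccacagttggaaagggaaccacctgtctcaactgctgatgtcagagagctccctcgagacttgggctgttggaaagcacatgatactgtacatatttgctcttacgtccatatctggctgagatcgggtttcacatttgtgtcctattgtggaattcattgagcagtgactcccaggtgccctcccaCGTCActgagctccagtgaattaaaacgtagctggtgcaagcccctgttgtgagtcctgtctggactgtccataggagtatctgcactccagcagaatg
Alas1: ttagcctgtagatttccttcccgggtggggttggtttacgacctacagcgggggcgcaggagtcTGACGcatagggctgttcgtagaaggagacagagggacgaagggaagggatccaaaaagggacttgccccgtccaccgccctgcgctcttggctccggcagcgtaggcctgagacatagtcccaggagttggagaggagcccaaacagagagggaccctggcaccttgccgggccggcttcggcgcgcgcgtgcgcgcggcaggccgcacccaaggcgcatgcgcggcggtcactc
With the start base as position 0, TGACG began at position -90 in Pck1, -49 in Ppargc1a and -186 in Alas1. Elovl5, the gene that rose, held a whole element from position 3 and an E-box at -161, with no other CACGTG to make a pair. Alas1 has 2 starts in the table, and the window of the other, which overlaps this one, held no match. Of the 34 called list members with a promoter in the table, 13 (38.2%) held TGACG and 5 (14.7%) the E-box. TGACG was in 34 of 92 genes called lower (37.0%), 9 of 40 called higher (22.5%), 32.9% of the 11872 tested genes with a promoter in the table and 20.8% of all 32851 promoters. CACGTG was in 15.2% of the genes called lower, 15.0% of those called higher, 11.2% of tested genes and 7.15% of all promoters. The whole element was in 7 genes called lower (7.61%), 1 called higher (2.5%), 3.25% of tested genes and 1.79% of all promoters. These shares are counts of letters in a window and carry no test.

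Haem synthesis and drug metabolism gave 3 of 26 genes called lower, none higher and a median of -0.34. This median was -0.12 without low-carbohydrate 4 and -0.22 with the kidney covariate. With other settings or libraries left out it ran from -0.50 to -0.00081. Alas1, the rate-limiting enzyme of haem synthesis in liver, was at 117 to 405 CPM (median 221) with high carbohydrate, against 1461, 1043, 478 and 1176 CPM in low-carbohydrate libraries 1 to 4. The groups did not overlap, although low-carbohydrate 3 lay near the highest high-carbohydrate library (log2 fold change -2.06, SE 0.32, edgeR adjusted p = 0.0239). Por, the reductase that hands electrons to microsomal cytochromes P450, was at 142 to 491 CPM (median 264) with high carbohydrate, against 834, 462, 571 and 1432 CPM in low-carbohydrate libraries 1 to 4 (log2 fold change -1.57, SE 0.34, edgeR adjusted p = 0.0480), and Cyp2a5, a P450 with close paralogues whose shared reads make its level uncertain, was at 213 to 845 CPM (median 631) with high carbohydrate, against 2369, 1224, 723 and 3636 CPM in low-carbohydrate libraries 1 to 4 (log2 fold change -1.87, SE 0.41, edgeR adjusted p = 0.0492). Without low-carbohydrate 1 and 4 together the values were -1.62, -0.91 and -0.85. Electron donors of mitochondrial P450s, outside the lists and chosen after their values were seen, were also called lower: Fdx1, a ferredoxin, at -0.52 and its reductase Fdxr at -0.48 (edgeR adjusted p = 0.0391 and 0.0458).

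Hormone and clock genes held single calls, and over all genes tested 1.01% were called. In the growth hormone, insulin and IGF list, Stat5a, a transducer of growth hormone signals, rose, at 14.9 ± 3.03 CPM with high carbohydrate (SD, n = 8) and 8.58 ± 0.564 CPM with low carbohydrate (SD, n = 4) (log2 fold change 0.80, SE 0.16, edgeR adjusted p = 0.0356), and Fkbp5, a glucocorticoid-induced chaperone, fell, at 45.8 ± 15.9 CPM with high carbohydrate (SD, n = 8) and 111 ± 47.4 CPM with low carbohydrate (SD, n = 4) (log2 fold change -1.28, SE 0.27, edgeR adjusted p = 0.0428, or -0.81 without low-carbohydrate 1 and 4 together). The groups of Fkbp5 overlapped. Igfbp1, an IGF-binding protein induced in fasting, was at 60.7 to 272 CPM (median 143) with high carbohydrate, against 94.8, 87.3, 189.5 and 1390.0 CPM in low-carbohydrate libraries 1 to 4. Its log2 fold change of -1.52 came with 1 library at 1390 CPM and was 0.29 without it and 0.14 without low-carbohydrate 1 as well. Igf1 had -0.24 and Igfbp2 -0.41, with edgeR adjusted p-values of 0.186 and 0.245, and Igfbp2 had -0.26 without low-carbohydrate 4. Of 21 clock genes only Noct, a rhythmic phosphatase of nicotinamide cofactors, was called, at 6.26 to 61.5 CPM (median 15.7) with high carbohydrate, against 152, 120.1, 43.9 and 158 CPM in low-carbohydrate libraries 1 to 4. Low-protein 2 was the one high-carbohydrate library above low-carbohydrate 3 (log2 fold change -2.58, SE 0.49, edgeR adjusted p = 0.0355). The time of day of sampling is not given in the labels. Among acute phase genes (25), Cp (ceruloplasmin) and Fgg (a fibrinogen chain) rose and Cebpd, an inflammatory transcription factor, fell, with log2 fold changes of 0.45, 0.52 and -1.54 (edgeR adjusted p = 0.0273, 0.0482 and 0.0312), none with overlap between groups. Of 26 NRF2 and glutathione genes, Osgin1 rose and Gsta4 fell, with 1.67 and -0.60 (edgeR adjusted p = 0.0471 and 0.0482), and Gsta4 had -0.29 without low-carbohydrate 1 and 4 together. Both genes had overlap between groups.

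The genes with the smallest p-values and separate groups included several outside these programs. Pptc7, a mitochondrial phosphatase, was at 13.8 to 22.2 CPM (median 14.6) with high carbohydrate, against 39.7, 30.9, 29.8 and 46.2 CPM in low-carbohydrate libraries 1 to 4 and had the smallest p of all named genes (log2 fold change -1.18, SE 0.14, edgeR adjusted p = 0.0103). Cyp2d40, a member of the Cyp2d family whose near-identical copies make its count uncertain, was at 41.6 to 66.4 CPM (median 54.4) with high carbohydrate, against 18.8, 28.1, 23.7 and 19.0 CPM in low-carbohydrate libraries 1 to 4 (log2 fold change 1.26, SE 0.17, edgeR adjusted p = 0.0103). Both stood clear of the other group in every library. Paqr9 rose (log2 fold change 1.00, SE 0.16, edgeR adjusted p = 0.0239), as did Arsg, a lysosomal sulfatase (0.74), and Col15a1, a basement membrane collagen (1.06). Tuba1c, an alpha tubulin, rose by 0.82 on the log2 scale, and its relatives Tuba1a and Tuba1b, named after their values were seen, by 0.62 and 0.58; these genes are similar in sequence, and how shared reads were counted is not stated. Among the lower genes were Hip1r, an endocytic adaptor (-1.14), Tmc7 (-1.48), AA986860 (-2.14) and Slc25a51, the mitochondrial NAD carrier (-1.08), with edgeR adjusted p-values of 0.0103, 0.0103, 0.0224 and 0.0266. Without low-carbohydrate 1 and 4 together Paqr9 had 0.66, Hip1r -0.75, Slc25a51 -0.63 and Ctcfl -0.54. Ctcflos, an antisense gene that overlaps Ctcfl on chromosome 2, had -1.05, and Ctcfl -0.90; as the strand setting of the counting is not stated, reads of the pair cannot be told apart.

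Other lists held no called gene. All 75 nuclear genes of the respiratory chain were below 0 (median -0.27, or -0.18 without low-carbohydrate 4), as were 81 of 83 cytosolic ribosomal proteins (median -0.30, or -0.23 without it), and none passed. Over all genes tested 7961 of 17423 were below 0. In the median level of either list, high- and low-carbohydrate libraries overlapped. Cox5a, a subunit of cytochrome oxidase, was at 56.7 ± 3.53 CPM with high carbohydrate (SD, n = 8) and 70.9 ± 11.3 CPM with low carbohydrate (SD, n = 4), with -0.32 (edgeR adjusted p = 0.103). Among fatty acid oxidation genes and PPAR-alpha targets 28 of 36 were below 0 (median -0.15, or -0.09 without low-carbohydrate 4), with Cpt1a, the gate of fatty acids into mitochondria, at -0.38 (edgeR adjusted p = 0.103). Cholesterol synthesis (25 genes, median 0.12), endoplasmic reticulum chaperones (26, 0.20), the interferon response (30, 0.20), the cell cycle (26, 0.30), the ATF4 response (23, 0.08), bile acid genes (20, 0.10), apolipoproteins (24, -0.15), p53 targets (20, -0.01), nucleotide excision repair (27, -0.00081) and mitochondrially encoded genes (13, -0.12) had no call either. Without low-carbohydrate 4 the median was 0.06 for cholesterol synthesis, 0.12 for chaperones, 0.09 for the interferon response, 0.14 for the ATF4 response, 0.04 for bile acid genes and -0.06 for apolipoproteins. Without low-carbohydrate 1 it was 0.14 for the ATF4 response and -0.19 for mitochondrially encoded genes, and with the kidney covariate it was -0.01, 0.02 and -0.10 for the ATF4 response, bile acid genes and apolipoproteins. Medians of p53 targets and nucleotide excision repair ran from -0.08 to 0.04 in these settings. Cyp7a1, the rate-limiting enzyme of bile acid synthesis, was at 25.0 to 137 CPM (median 56.0) with high carbohydrate, against 560.3, 269, 39.8 and 374 CPM in low-carbohydrate libraries 1 to 4, and low-carbohydrate 3 lay within the high-carbohydrate range (log2 fold change -2.09, SE 0.56, edgeR adjusted p = 0.0918, or -1.09 without low-carbohydrate 1 and 4 together). Fgf21, the hepatic hormone of protein restriction, ran from 0.683 to 7.46 CPM with high carbohydrate and from 0.0645 to 2.41 CPM with low carbohydrate (edgeR adjusted p = 0.348).

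**Figure D4:**
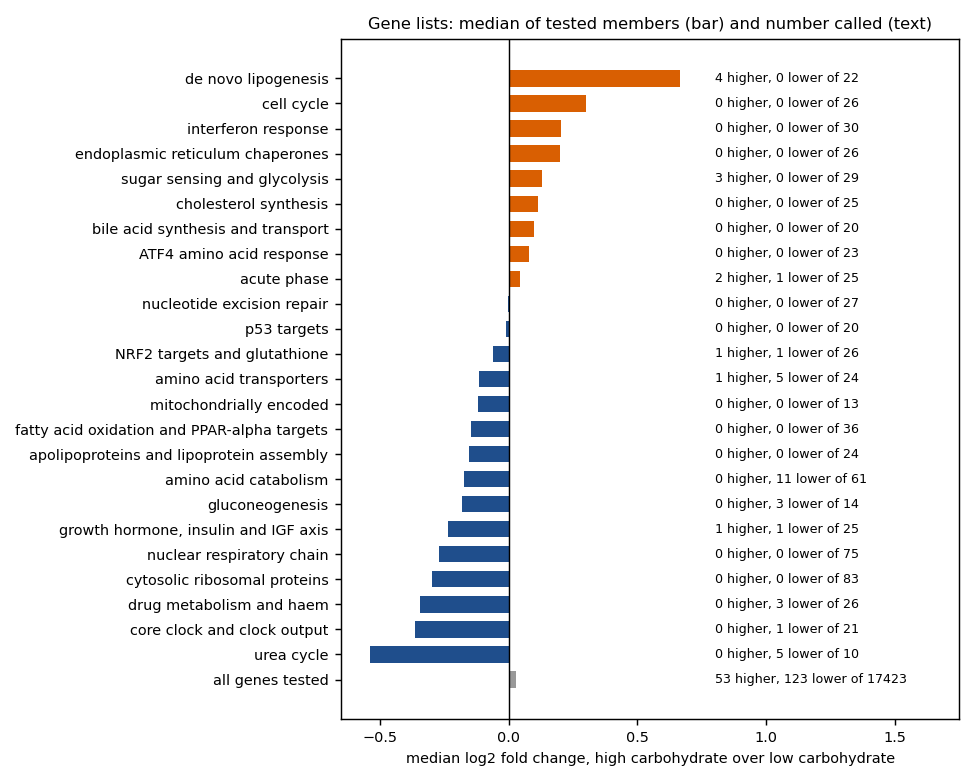
Median log2 fold change, high over low carbohydrate, of the tested members of 24 gene lists (bars), with the numbers called higher and lower of those tested (text) and all genes tested at the bottom. Lipogenesis has the highest median, 0.67, and the urea cycle the lowest, -0.54, against 0.03 for all genes.

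Markers of cell types were read beside these results. In bulk tissue, fewer cells of a type and less RNA per cell cannot be told apart. Periportal hepatocyte markers share Ass1, Arg1, Pck1, Sds and Gls2 with the lists above. Of the 12 periportal markers, 5 were called lower and none higher (over all genes tested, 0.706% and 0.304%). Their median was -0.66 and ran from -0.77 to -0.36 with other settings or libraries left out. Their sum was 7052 to 9907 CPM with high carbohydrate and 11950 to 18730 CPM with low carbohydrate. Pericentral markers had 2 of 12 called lower, Slc1a2 and Oat, with a median of -0.0018. Their sum, 7860 to 10570 CPM with high carbohydrate and 10680 to 12590 CPM with low carbohydrate, did not overlap between groups, nor did the periportal sum. B cell markers had 10 of 11 above 0 and a median of 1.17. Their sum was 8.37 to 36.2 CPM with high carbohydrate and 5.46 to 9.64 CPM with low carbohydrate, and Ms4a1 was at 0 in a low-carbohydrate library. Of 13 sinusoidal endothelial markers Flt4 was called lower, with -0.41 (edgeR adjusted p = 0.0482). No marker of Kupffer cells, recruited macrophages and neutrophils, T and NK cells, stellate cells, cholangiocytes or erythroid cells was called, and the list medians were 0.07, 0.06, 0.43, 0.16, 0.62 and -0.80. Without low-carbohydrate 1 the median was 0.25 for cholangiocytes, 0.03 for Kupffer cells and 0.10 for recruited cells. Without low-carbohydrate 4 it was -0.43 for erythroid cells, 0.08 for stellate cells and -0.04 for recruited cells, and with the kidney covariate it was -0.19 for cholangiocytes and 0.07 for stellate cells. The erythroid sum was 304 to 726 CPM with high carbohydrate and 369 to 1381 CPM with low carbohydrate, the highest in low-carbohydrate 4. The part of these cell types and of kidney transcripts in the results was not tested for each gene beyond the fit with the kidney sum. In that fit Pklr had a log2 fold change of 1.03, Elovl5 1.29, Tat -1.56, Pck1 -1.16 and Alas1 -2.03. None of these genes was called there (edgeR adjusted p = 0.0882, 0.0620, 0.0563, 0.0751 and 0.0611).

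The 2 high-carbohydrate diets were then set side by side. Between the low-fat and the low-protein diet edgeR called 0 genes (0%; the smallest adjusted p was 0.258, and 1287 genes had an unadjusted p under 0.05), and DESeq2 called 57. Each diet alone was compared with the same 4 low-carbohydrate libraries, so the comparisons are not independent. In the fit with 3 group means, 0 genes (0%, smallest adjusted p 0.0619) were called for the low-protein diet (2034 had an unadjusted p under 0.05 in a fit of these 8 libraries alone) and 38 (0.218%), 15 higher and 23 lower, for the low-fat diet. The log2 fold change was 0.98 with low fat and 1.06 with low protein for Pklr, 1.18 and 1.17 for Elovl5, and 1.13 and 1.01 for Me1. It was -0.45 with low fat and -0.59 with low protein for Cps1, -1.78 and -1.46 for Tat, and -1.05 and -1.18 for Pck1. The widest gap among named P450 genes was that of Cyp2a5, with -2.49 with low fat and -1.43 with low protein, and this difference did not pass (edgeR adjusted p = 0.624).

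Gene length was examined because the series title names it. The slope of each library's log2 CPM deviation on log10 genomic length, over 14092 protein-coding genes, was 0.0278 ± 0.0981 with high carbohydrate (SD, n = 8) and -0.0557 ± 0.0580 with low carbohydrate (SD, n = 4). The difference of 0.0835 was within the spread of the libraries (exact two-sided permutation p = 0.158). Low-fat 3 had the steepest slope, 0.235, and also the highest kidney sum. In the shortest class, 3408 genes under 10 kb, the median log2 fold change was -0.03. The medians of the next 4 classes, bounded at 30, 60, 100 and 200 kb, were 0.01, 0.05, 0.06 and 0.10, and the 682 longest genes had 0.18. Of the genes over 200 kb 4 (0.587%) were called higher and 3 (0.44%) lower. From 100 to 200 kb 6 (0.509%) were called higher and 16 (1.36%) lower. The shares over all genes tested were 0.304% and 0.706%.

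**Figure D5:**
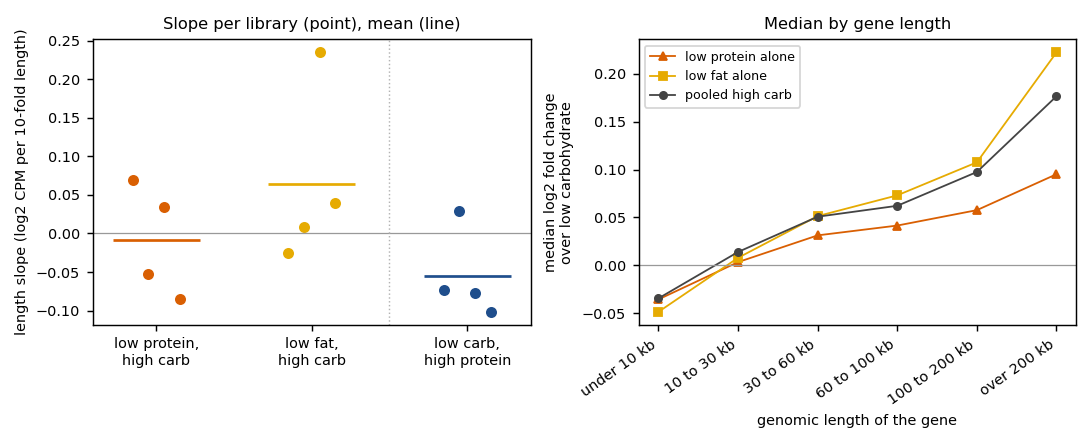
Left, length slope (log2 CPM per 10-fold genomic length) of each library (points) and group means (lines), high-carbohydrate diets left of the dotted line. Right, median log2 fold change over low carbohydrate by genomic length, which runs from -0.03 under 10 kb to 0.18 over 200 kb for the pooled diets.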

How the data were processed

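RNA was sequenced from snap-frozen liver with a directional library kit, per the labels' protocols. The authors deposited counts: 1 table with a whole number of reads for each gene and library. Trimmomatic 0.39, STAR 2.7.0f, featureCounts, Subread 1.6.4, edgeR 3.32.1 and build GRCm38.p6 are named in the submitters' processing notes. Their settings, and whether counting used strand, are not given in these sources. Of 54752 genes, 53861 matched GENCODE M21 by versioned identifier, all at the same start and end, 862 more were named by the identifier without its version, and 29 had no name.

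Here, genes passing filterByExpr on the 2 pooled groups (17423) were normalised with TMM factors and tested with the quasi-likelihood F test of edgeR 4.0.16 (R 4.3.3), two-sided, with Benjamini-Hochberg adjustment over all genes tested at 0.05. The model held 2 pooled group means. CPM used TMM-scaled library sizes. The length slope and kidney sum were compared by exact permutation. Alternatives were DESeq2 1.42.0, limma 3.58.1 (voom with quality weights), factors by RLE or upper quartile, other filters, 3 group means, all 16 libraries, a replicate block, the kidney sum as a covariate, each diet alone and each library left out. The omission of low-carbohydrate 1 and 4 together was added after seeing the data. The steps were tested on simulated data.

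The members and gene lists were chosen with earlier results of these data known. Genes were named by a rule: the 12 smallest p-values per direction among called genes with a mean CPM of at least 1 and no overlap between groups, the 2 smallest p-values of each list, and a panel of 36 metabolic genes. Not every gene named by the rule is reported here. Called list members beyond the first 2, Tuba1a, Tuba1b, Ctcfl, Fdx1, Fdxr, Nnmt and Meg3 were chosen after their values were seen, and so were the promoters printed. Replicates differed by more than sampling noise (chi-square divided by its degrees of freedom was at least 47.6). Whether animals shared litters or cages is not stated, so the p-values reflect only the spread between samples.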

Additional observations from a re-analysis of the deposited data

Results flagged for a closer look

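Of 210 sets of values examined for a single library far from the others of its group, 14 held one, and 4 of these were low-carbohydrate 4; chance gives about 1 in 20 sets. In low-carbohydrate 4, Igfbp1 was at 1390 CPM, Gnmt at 1942 CPM, Ddit4, a stress-induced inhibitor of mTORC1, at 205.2 CPM and Cox5a at 87.7 CPM, each the highest of its group. Ddit4 had a log2 fold change of -2.32, or -0.84 without that library. Meg3, a long noncoding RNA, was at 60.06 CPM in low-carbohydrate 3, with a log2 fold change of -1.25 over all libraries and -0.83 without that library.

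With high carbohydrate, Cp was lowest in low-protein 4 (1031 CPM), and Gpt2 was highest there (589.4 CPM). Pptc7 was at 22.2 CPM and Noct at 61.45 CPM in low-protein 2, and Srebf1 was at 519.8 CPM in low-protein 3, each the highest of the group. In low-fat 4, Ppargc1a was at 33.68 CPM and Nnmt, the nicotinamide methyltransferase, at 106 CPM. Ddit4 was at 40.46 CPM in low-fat 1. The total count of low-fat 2, 112789127, stood apart from the other 7. The reasons were not tested.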

How the results depend on the processing

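Against 176 genes called, DESeq2 called 868, limma-voom with quality weights 33, the fit of all 16 libraries 0, the fit with the kidney covariate 1, the low-protein diet alone 0, the low-fat diet alone 16, the fit without the deepest library 19 and the fit without low-carbohydrate 1 and 4 together 0. Leaving out 1 library gave 0 (low-carbohydrate 4) to 384 (low-carbohydrate 3). It gave 24, 9, 63, 19 and 33 without low-protein 1 and 3 and low-fat 1, 2 and 3, and 11 without low-carbohydrate 1. The share called higher was 30.1%, against 45.5% with DESeq2. RLE and upper-quartile factors, both filters and 3 group means gave 128 to 205. All called genes that were tested kept their direction in these settings, which reuse the libraries that picked them. None of the 67 called genes listed for the text was called in all 26. This was fixed in advance, as some of these settings called 0 genes in total. Between the low-fat and low-protein diets DESeq2 called 57 genes against 0, and leaving out 1 library gave 0 to 0. The kidney difference ran from 0.55 to 1.91 and the length slope difference from 0.0552 to 0.109 with 1 library left out. Txnip had 0.021 with voom and ran from -1.10 to 0.15 with 1 library left out. G6pc had 0.33 with voom and 0.11 with the low-fat diet alone, and ran from -0.57 to 0.35. Igfbp1 had 0.14 without low-carbohydrate 1 and 4 together, and ran from -1.86 to 0.29. The causes were not tested.

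Replicate numbers showed no clear pairing of the samples: 3 of 12 same-numbered pairs correlated over 0.1, and 10 of 36 others. The median correlation was 0.0279 for same-numbered pairs and -0.00462 for others, and the highest 0.3 and 0.292. So few pairs cannot exclude a pairing. With the replicate block 202 genes were called, 0 between the low-fat and low-protein diets, and the exact permutation p was 0.198 for the length slope and 0.136 for the kidney difference. Low counts limit Pnpla3 and Fgf21.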
